A study of Homo sapiens with 7 samples.

Results

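The genes described here encode the nuclear part of the respiratory chain and of the mitochondrial ATP synthase. They were chosen by symbol alone, as the protein-coding genes whose symbol starts with NDUFA, NDUFB, NDUFC, NDUFS, NDUFV, UQCR, ATP5 or COX followed by a digit, together with SDHA, SDHB, SDHC, SDHD and CYC1. This rule gave 108 of the 58174 genes in the table and used no measured value. They were measured by total RNA-seq in Huh-7, an established human cell line of hepatocellular carcinoma origin. Cells were transfected with a control siRNA (siC, 3 libraries) or with an siRNA pool that targets IGF2BP1 (siIGF2BP1, 4 libraries), and RNA was taken 72 h later. Both groups were of the same line, and the labels name no other agent. The sources do not say whether replicates were separate cultures, so the p-values measure only the spread between these libraries, which may be technical. IGF2BP1 is an oncofetal RNA-binding protein that shields its target mRNAs from degradation, and the comparison asks how the transcripts of the chain stood when it was depleted.

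The respiratory chain sits in the inner mitochondrial membrane. Complex I takes electrons from NADH and complex II takes them from succinate, complex III passes them to cytochrome c, and complex IV hands them to oxygen. Complexes I, III and IV pump protons, and the ATP synthase, also called complex V, lets the protons back to make ATP. All complexes except complex II hold some subunits encoded by mitochondrial DNA, while nuclear genes encode the rest, and assembly factors put the parts together without staying in the finished complex. Core subunits carry out the catalysis, and accessory subunits surround them. In the liver the chain supports gluconeogenesis, urea synthesis and fat oxidation.

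The symbols cover more than subunits of the chain. By their known roles, 76 of the 108 genes encode subunits, namely 37 of complex I (7 core and 30 accessory), 4 of complex II, 9 of complex III, 11 of complex IV and 15 of complex V. NDUFA4 was counted with complex IV, in which the protein is found. Another 18 encode assembly factors, 9 for complex I and 9 for complex IV (COX10 to COX20). The remaining 14 are tissue isoforms of complex IV subunits, retrogenes, read-through transcripts and related genes. The list as a whole is therefore called the respiratory chain genes, and the word subunit is kept for the 76.

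Many subunit genes are known as targets of the nuclear respiratory factors NRF1 and GABPA, an ETS family protein, and of YY1. The region from 250 bases before to 50 bases after each RefSeq start site (GRCh38.p14) was searched on both strands for core motifs of these factors. Of the 108 genes, 84 had such a region. The NRF1 core CGCATGCG, which reads the same on both strands, was found in 14 of the 84 genes (16.7%) and in 2.46% of all 27305 genes with a region. The ETS core CCGGAAG was found in 26 genes (31.0%, against 12.2% of all genes) and the YY1 core AAGATGGC in 14 (16.7%, against 3.52%). The SP1 core GGGCGG stood in 52 genes (61.9%, against 48.3%), and TATAAA in 8 (9.52%, against 13.99%). A shorter motif is met more often in any region, so the shares are comparable only within a motif. The letters mark a match and not a bound site. The following 60-base stretches lie upstream of the start sites of members described below, and are shown as examples of these matches: the NRF1 core in genes of complexes II, IV and V and of an assembly factor, and the ETS core in genes of complexes II and III. Each is given 5′ to 3′ on the strand of the gene, with the motif in capitals; the ETS core appears as its reverse complement where the match was on the other strand.
SDHD, NRF1 core, chr11:112086738-112086797, plus strand: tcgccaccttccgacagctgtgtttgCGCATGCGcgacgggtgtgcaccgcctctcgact
COX6A1, NRF1 core, chr12:120437868-120437927, plus strand: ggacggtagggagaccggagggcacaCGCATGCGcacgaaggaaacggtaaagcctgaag
COX17, NRF1 core, chr3:119677488-119677547, minus strand: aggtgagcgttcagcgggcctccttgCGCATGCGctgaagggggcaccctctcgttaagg
ATP5I, NRF1 core, chr4:674320-674379, minus strand: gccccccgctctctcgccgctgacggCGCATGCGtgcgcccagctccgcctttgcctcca
SDHB, ETS core, chr1:17054128-17054187, minus strand: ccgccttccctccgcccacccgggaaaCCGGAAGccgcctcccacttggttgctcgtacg
UQCRH, ETS core, chr1:46303625-46303684, plus strand: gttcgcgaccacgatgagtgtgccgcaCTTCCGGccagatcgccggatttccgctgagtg

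Depth ran from 12826550 to 33212205 reads on genes per library. IGF2BP1 itself was lowered in the siIGF2BP1 libraries from 82.2 ± 2.03 FPKM (SD, n = 3) to 15.8 ± 0.583 (n = 4), with -2.37 as the log2 change (limma adjusted p = 1.16e-05). FPKM counts fragments per length of the gene and size of the library. The liver markers ALB (1705 to 2042 FPKM) and AFP (2611 to 3450) were high in all libraries, and each of the other hepatocyte markers examined stood at 14.1 FPKM or more. Markers of fibroblasts, leukocytes, endothelium and red cells reached at most 3.29 FPKM (PECAM1), and HBB, HBA1 and HBA2 were listed at 0. In bulk RNA, fewer cells with a transcript and less of it per cell cannot be told apart. All 37 genes of mitochondrial DNA were also listed at 0 in each library, so the subunits they encode were not analysed here.

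The library labelled siC replicate 3 stood apart from the other controls, over all genes as well as in the respiratory chain genes. Over genes with enough reads, chi-square per degree of freedom was 56.8 and 53.6 against siC replicates 1 and 2, and 3.11 between those replicates. The respiratory chain genes' share of all reads was 0.862% and 0.852% in siC replicates 1 and 2, 0.680% in siC replicate 3, and 0.813%, 0.782%, 0.824% and 0.843% in the 4 siIGF2BP1 libraries. The median respiratory chain gene lay 0.35 below the mean of siC replicates 1 and 2 on the log2 scale in siC replicate 3, where the median over all genes tested lay 0.033 below. Of the 96 tested respiratory chain genes, 58 (60.4%) had their lowest value of the 7 libraries in siC replicate 3, against 31.1% of all genes tested, and 11 had their highest value there. Because this library is 1 of only 3 controls, the main results below are given with it and without it.

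The distance of siC replicate 3 from the other controls was larger for genes with short transcripts. Measured by the canonical transcript, the median distance was -0.73 on the log2 scale for the 24 genes under 600 bases, -0.31 for the 25 genes of 600 to under 1000 bases, -0.27 for the 20 genes of 1000 to under 2000 bases, and -0.16 for the 27 longer genes. Over the 96 genes, Spearman's rho between distance and transcript length was 0.44, and that between distance and GC content was -0.11. Over all genes tested the rho with GC content was -0.43 and that with transcript length 0.12. Among all 2590 tested genes with canonical transcripts under 600 bases the median distance was 0.071, while it was -0.17 and -0.18 for all genes of 600 to under 1000 and of 1000 to under 2000 bases. The median over all short genes thus lay above 0, and that over the short respiratory chain genes well below it. The genes tested were not limited to protein-coding ones, while the respiratory chain genes were all protein-coding. Short protein-coding genes alone were not compared. Low values in siC replicate 3 were not particular to the respiratory chain genes. Without this library their median log2 change, siIGF2BP1 minus siC, went from 0.024 to -0.13. It went from -0.067 to -0.19 for mitochondrial ribosomal proteins and from -0.068 to -0.15 for mitochondrial protein import. For the citric acid cycle list it went from -0.026 to -0.068, and for all genes tested from -0.017 to -0.031. The respiratory chain genes were short as a group, with a median canonical transcript of 956 bases against 2443 bases for all genes tested. Their GC content was close to that of all genes, at a median of 46.7% against 47.0%. The part of transcript length and of GC content in the distance was not tested.

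**Figure D1:**
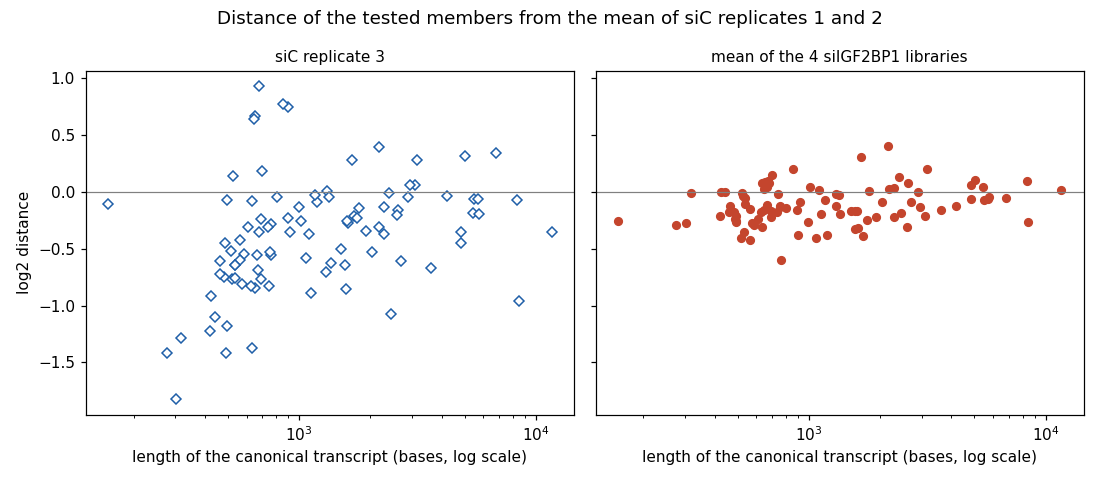
Distance of the 96 tested respiratory chain genes from the mean of siC replicates 1 and 2 (vertical axis, log2 scale) against the length of the canonical transcript (horizontal axis, bases, log scale), for siC replicate 3 on the left and the mean of the 4 siIGF2BP1 libraries on the right. Each point is 1 gene. In siC replicate 3 the 24 shortest genes, under 600 bases, had a median distance of -0.73, and ATP5I lay lowest at -1.82.

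Subunit genes were well expressed. The median tested respiratory chain gene had 19.8 FPKM, against 5.65 FPKM for all genes tested. Subunits of complexes I to IV are mostly present in equal number, yet transcript levels within a complex spread widely. In complex I the mean over the 7 libraries ran from 0.370 FPKM for NDUFA3 to 198 FPKM for NDUFS5, both accessory subunits. In complex II it ran from 10.7 FPKM for SDHC, a membrane anchor, to 20.7 FPKM for SDHB, the iron-sulfur subunit. In complex III UQCRB was lowest at 13.0 FPKM and UQCRH, the hinge protein, highest at 103 FPKM. In complex IV the extremes were COX7B at 15.5 FPKM and COX6B1 at 136 FPKM. In complex V they were ATP5O (ATP5PO), the stalk subunit known as OSCP, at 12.7 FPKM and ATP5B (ATP5F1B), the catalytic beta subunit, at 403 FPKM. Complex II thus had the narrowest range of FPKM. These levels depend on the gene length used as divisor, which can far exceed the canonical transcript. For SDHC it was 14160 bases against 1308. SDHC was lowest of complex II by FPKM but held the most reads over all libraries, 20018 against 6689 for SDHB. The order of genes within a complex is thus one of FPKM.

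**Figure D2:**
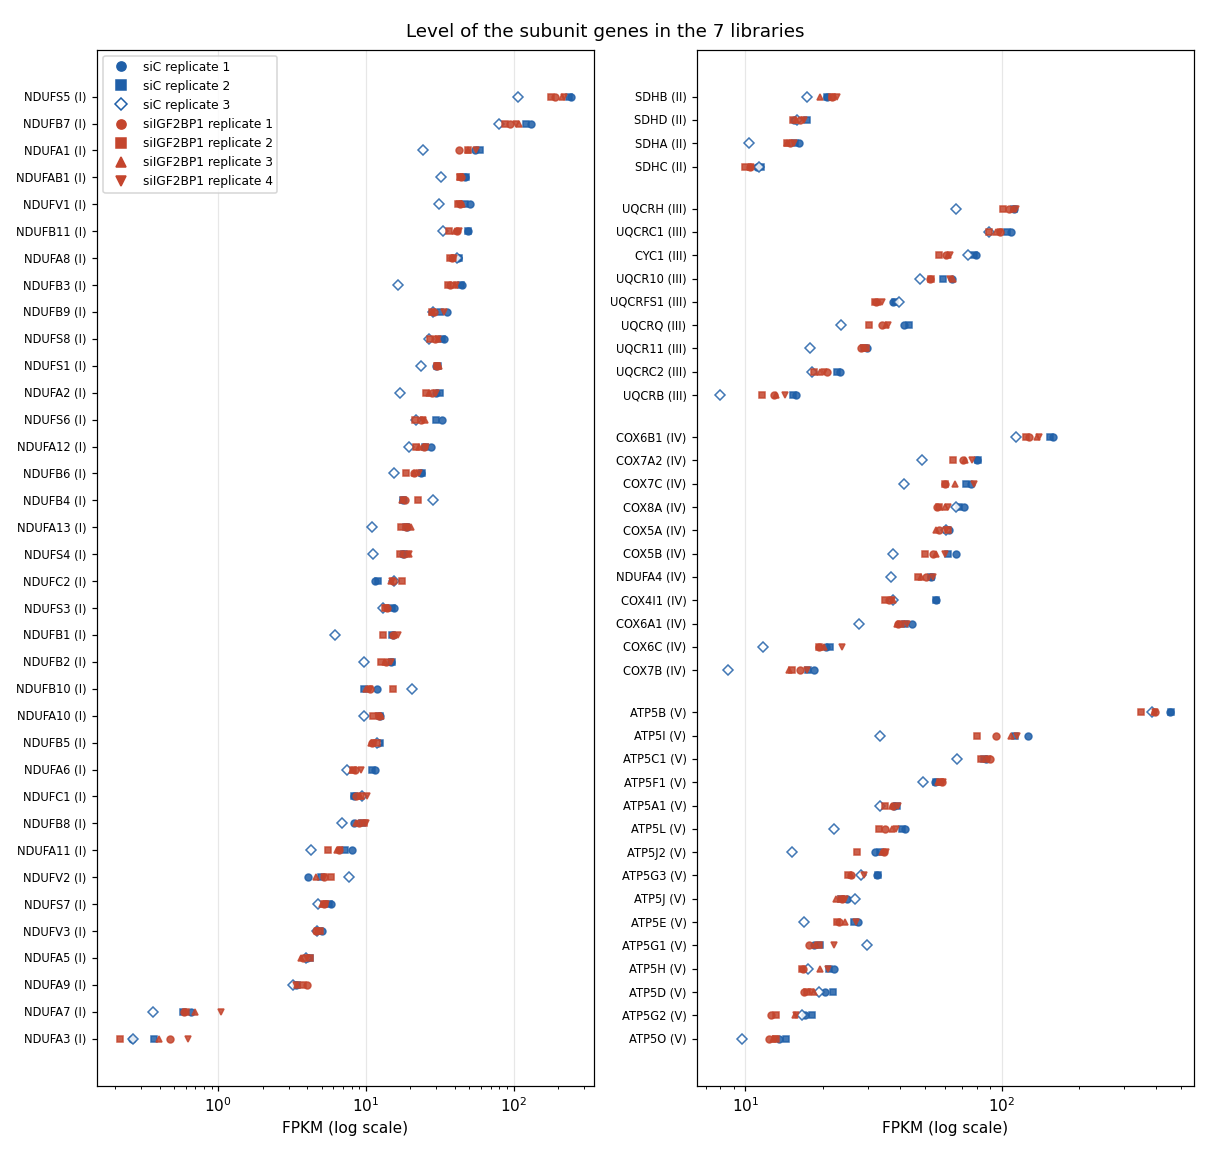
Level of the subunit genes (FPKM, log scale; 1 gene is not shown) in the 7 libraries, with the complex in brackets after the symbol; blue marks siC, open diamonds siC replicate 3, and red marks siIGF2BP1. The open diamonds lie to the left of the other symbols for most genes, as in NDUFS5 at 106 FPKM against 179 to 245 FPKM in the other libraries.

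Summed over the genes of a complex, transcript levels stood in the same order of groups for 4 of the 5 complexes. The 37 complex I genes summed to 1116 and 1091 FPKM in siC replicates 1 and 2 and to 735 FPKM in siC replicate 3. In the 4 siIGF2BP1 libraries they summed to 946, 919, 992 and 1022 FPKM. The siIGF2BP1 libraries therefore lay between siC replicate 3 below and the other controls above. Complex III summed to 511, 502 and 384 FPKM in siC and to 446, 421, 461 and 470.0 FPKM in siIGF2BP1. Complex IV summed to 705, 687 and 491 FPKM in siC and to 586, 574, 604 and 651 FPKM in siIGF2BP1. Complex V summed to 1006, 999 and 770.0 FPKM in siC and to 895, 815, 911 and 941 FPKM in siIGF2BP1. In each of these the siIGF2BP1 libraries again stood below siC replicates 1 and 2 and above siC replicate 3.

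Complex II was the exception. Its 4 genes summed to 63.3, 65.2 and 55.0 FPKM in siC and to 63.5, 61.5, 60.2 and 65.6 FPKM in siIGF2BP1, so the siIGF2BP1 libraries overlapped siC replicates 1 and 2. As a share of the mean of all 3 controls, the siIGF2BP1 mean was 98.9% for complex I, 103% for complex II, 96.5% for complex III, 96.3% for complex IV and 96.2% for complex V. As a share of the mean of siC replicates 1 and 2 it was 87.9%, 97.5%, 88.7%, 86.8% and 88.8%, in the same order. A sum is carried by the genes with high FPKM, such as ATP5B and NDUFS5. Whether the other complexes differed from complex II in this was not tested.

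**Figure D3:**
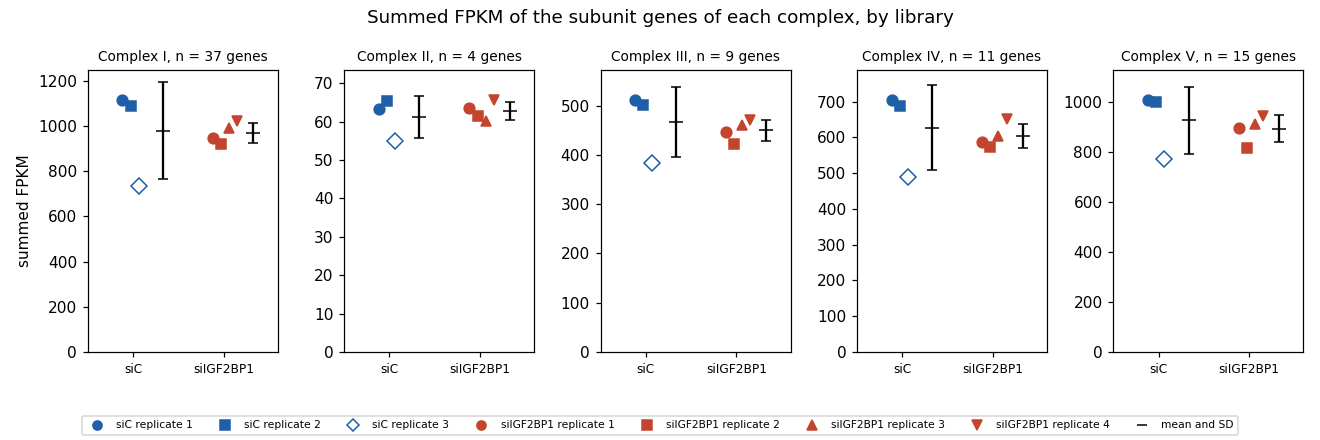
Summed FPKM (vertical axis, from 0) of the subunit genes of complexes I to V in each library, with the mean and SD of each group beside the points. For complexes I, III, IV and V the 4 siIGF2BP1 libraries lie between siC replicate 3 (open diamond) and siC replicates 1 and 2; for complex II they overlap siC replicates 1 and 2.

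Gene by gene, 96 of the 108 averaged 1 FPKM or more and entered the limma test on log2(FPKM + 0.1). With all 7 libraries, none of the 96 passed an adjusted p of 0.01 in either direction, where 2.28% of all 14839 genes tested passed as lower and 1.65% as higher in siIGF2BP1. The test on recovered read counts (voom) called none of them either. At an unadjusted p under 0.05, 12 of the 96 were lower (14.8% of all genes) and 1 was higher (11.0% of all genes). In 11 genes every siIGF2BP1 value lay below every siC value (15.1% of all genes), and in 2 every one lay above (11.9% of all genes). Fitted changes were below 0 for 43 of the 96, against 52.9% of all genes, and the median was 0.024 beside -0.017 over all genes. By unadjusted p and by overlap, the shares were under the background in both directions.

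Changes were small in size throughout. The largest was 0.63 on the log2 scale, no tested respiratory chain gene reached 1, and 2 reached 0.5, whereas 574 of all genes tested reached 1. The median SE was 0.13, so a typical gene could differ between the groups by more than its SE without passing the test. The result does not show that the genes were unaffected.

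Without siC replicate 3 the picture shifted downwards. Of the 96 genes, 72 then had a fitted change below 0 (54.5% of all genes), and the median was -0.13 beside -0.031 over all genes. All 4 siIGF2BP1 values lay below both controls for 46 genes (29.3% of all genes) and above both for 5 (20.5% of all genes). The limma test then called 7 genes lower (6.67% of all genes) and none higher (3.59% of all genes); at an unadjusted p under 0.05, 41 were lower (23.1% of all genes) and 3 were higher (15.2% of all genes). The share called lower was thus near the background, while the shares lower at the unadjusted p or with all values below both controls were above it. Among the 7 were CYC1, COX4I1, NDUFA6, NDUFAF3, NDUFAF8 and ATP5SL. Of the 53 genes with a change above 0, 33 turned to below 0 without this library, and 4 turned the other way. All 9 complex III genes and all 11 complex IV genes had changes below 0 in this fit, with medians of -0.21 and -0.18. In complex I 26 of 35 tested genes were below 0 (median -0.14) and in complex V 12 of 15 (median -0.16), while in complex II it was 3 of 4 (median -0.059). Among the assembly factors of the list 8 of 18 were below 0, with a median of 0.0030, and their difference from the subunits was not tested. Of 36 assembly factors outside the list, examined below, 30 were below 0 in this fit, with a median of -0.15. With the median SE down from 0.13 to 0.066, this fit takes the spread of the controls from only 2 libraries.

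**Figure D4:**
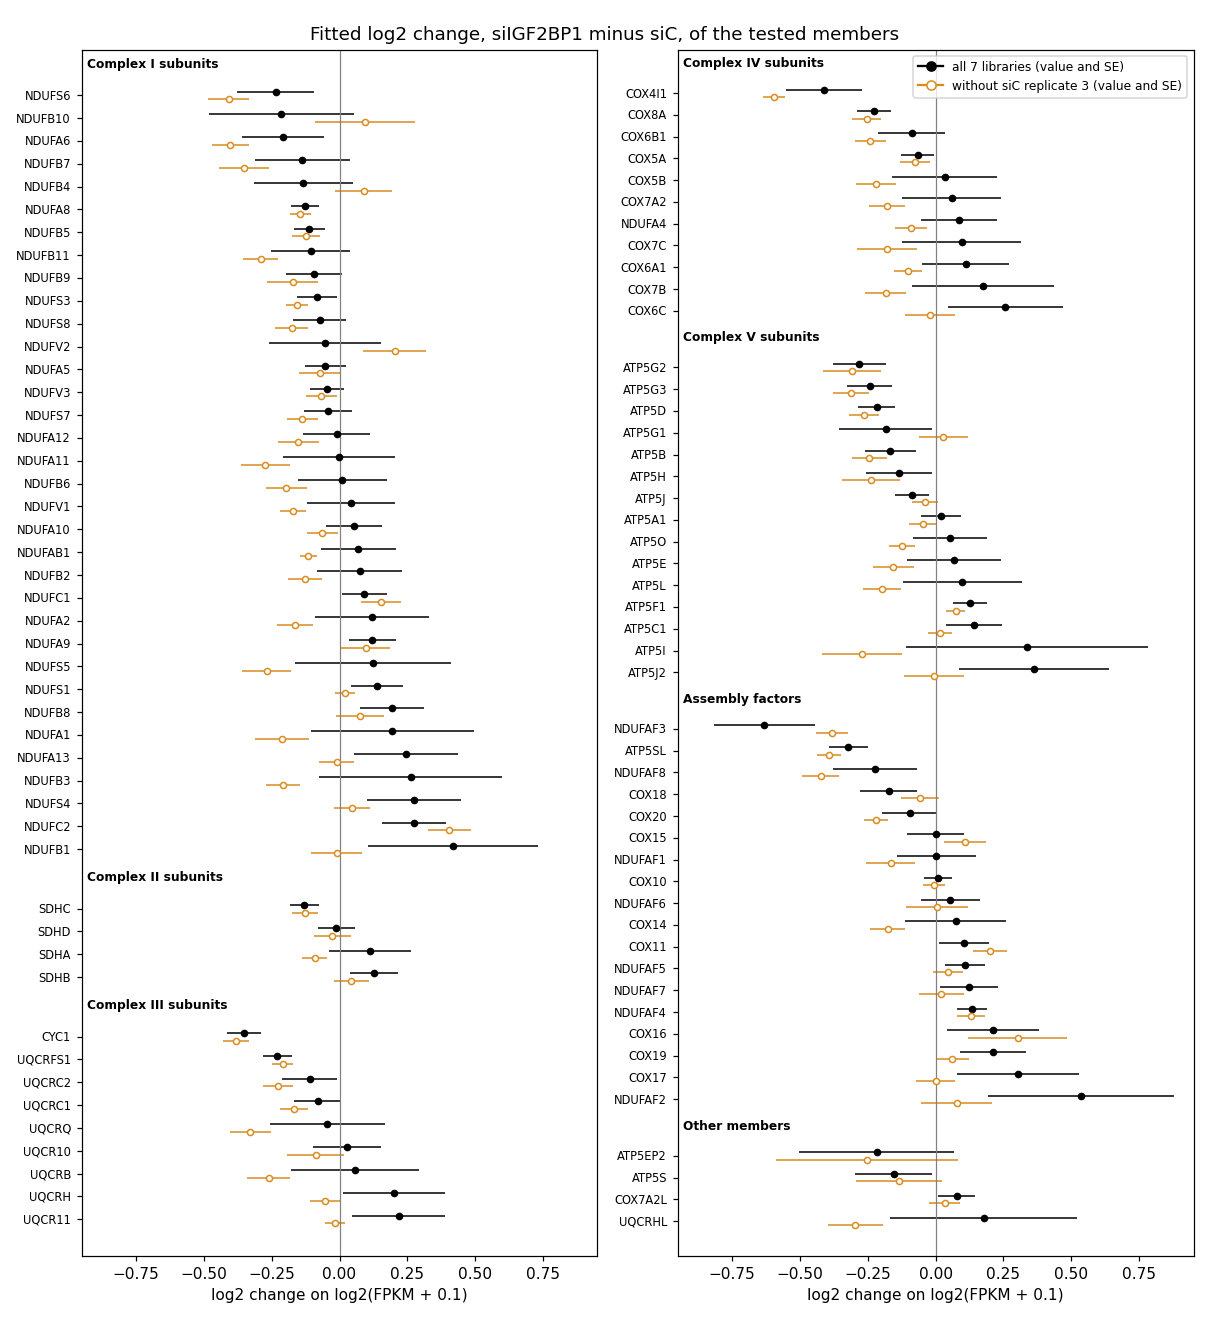
Fitted log2 change (siIGF2BP1 minus siC, with its SE) of the tested respiratory chain genes by complex and role (1 gene is not shown), from all 7 libraries (black) and without siC replicate 3 (orange, open). Most open points lie to the left of the black ones, and the 9 complex III and 11 complex IV open points are all below 0.

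CYC1 came nearest to the threshold. It encodes cytochrome c1, the core subunit of complex III that carries electrons to cytochrome c, and lies at chr8:144095039-144097525 (GRCh38). Its level was 79.5, 77.6 and 73.8 FPKM in the siC libraries and 60.5, 56.7, 61.6 and 62.6 FPKM in the siIGF2BP1 libraries. All 4 siIGF2BP1 values thus lay below all 3 controls, siC replicate 3 included. The group means were 77.0 ± 2.91 and 60.4 ± 2.59 FPKM, so that siIGF2BP1 reached 78.4% of the siC level. In limma the log2 change came to -0.35 (SE 0.062, limma adjusted p = 0.0142), and without siC replicate 3 it was -0.38 (limma adjusted p = 0.00378). In no fit that left out 1 library did it move beyond -0.32 to -0.38. CYC1 overlaps no exon of another protein-coding gene and has no pseudogene named after it in the table.

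UQCRFS1, the Rieske iron-sulfur protein and another core subunit of complex III, stood at 37.5, 38.4 and 39.6 FPKM in siC and at 32.4, 32.1, 32.8 and 34.0 FPKM in siIGF2BP1. The groups did not overlap, and limma gave a change of -0.23 (SE 0.053, limma adjusted p = 0.0361), or -0.21 without siC replicate 3 (limma adjusted p = 0.0131). It was singled out after its values were seen, as the gene with the next smallest p of the subunits. Among the accessory subunits, UQCRH stood at 112, 112 and 66.1 FPKM in siC and at 106, 101, 111 and 114 FPKM in siIGF2BP1. Only siC replicate 3 was apart there, and the change of 0.20 became -0.053 without it. UQCRB gave 15.7, 15.3 and 7.95 FPKM in siC and 12.9, 11.6, 13.2 and 14.2 FPKM in siIGF2BP1, and its change went from 0.057 to -0.26.

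In complex IV the largest difference was that of COX4I1, the ubiquitous isoform of subunit 4, which takes part in the control of the enzyme by ATP. COX4I1 lies at chr16:85798633-85807068 and overlaps exons of EMC8 on the other strand. It had 55.6, 55.1 and 37.6 FPKM in siC and 36.2, 35.2, 37.6 and 37.4 FPKM in siIGF2BP1. The siIGF2BP1 values were tightly grouped at the level of siC replicate 3 and well under the other controls. The fitted change was -0.41 on the log2 scale (SE 0.14, limma adjusted p = 0.117), and without siC replicate 3 it was -0.60 (SE 0.041, limma adjusted p = 0.000616). COX8A, a small membrane subunit, had 71.3, 68.3 and 66.2 FPKM in siC and 55.6, 56.9, 60.1 and 61.7 FPKM in siIGF2BP1. Its groups did not overlap, and the change was -0.23 (SE 0.063, limma adjusted p = 0.0643), or -0.25 without siC replicate 3 (limma adjusted p = 0.0189).

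Several other subunits of complex IV had low values in siC replicate 3. COX6B1 gave 157, 154 and 114 FPKM in siC and 128, 124, 136.5 and 139.5 FPKM in siIGF2BP1, and its change was -0.089 with that library and -0.24 without it. COX7B gave 18.6, 17.6 and 8.53 FPKM against 16.4, 15.3, 14.7 and 17.4 FPKM, with changes of 0.17 and -0.18. COX6A1 (0.11 and -0.10), COX7A2 (0.060 and -0.18) and NDUFA4 (0.086 and -0.089) turned in the same way. None of these passed the test in either fit.

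Isoforms of complex IV subunits that belong to muscle, lung or testis were at or near 0. COX6A2, COX7B2 and COX8C were listed at 0 in all libraries, as was the read-through NDUFC2.KCTD14. COX4I2, the lung isoform of subunit 4, was above 0 only in siC replicate 2 at 0.0901 FPKM, and COX7A1, the muscle isoform, only there at 0.0310 FPKM. COX6B2, a testis isoform, reached 0.0396 FPKM at most. NDUFA4L2, the relative of NDUFA4 induced by low oxygen, ranged from 0.0518 to 0.357 FPKM. Each isoform pair was thus carried by its ubiquitous member, COX4I1, COX6A1, COX6B1, COX7A2, COX8A and NDUFA4, and no pair changed which member was higher in any library. The read-through ATP5J2.PTCD1 (at most 0.132 FPKM) and the retrogene ATP5L2 (0.455 to 1.13 FPKM) were likewise too low to be tested.

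Among the untested genes were also a pair of structural complex I subunits. NDUFA3 had 0.259, 0.366 and 0.264 FPKM in siC and 0.468, 0.215, 0.396 and 0.623 FPKM in siIGF2BP1. NDUFA7 had 0.648, 0.574 and 0.360 FPKM in siC and 0.586, 0.604, 0.694 and 1.04 FPKM in siIGF2BP1. Both were far below the complex I median of 17.3 FPKM, and the groups overlapped for both. NDUFA3 overlaps exons of TFPT on the other strand, and NDUFA7 overlaps exons of RPS28 on the other strand and of a further protein-coding gene on its own strand. The part of these overlaps in the low values was not tested.

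In complex I no subunit passed the test with all libraries. Of its 35 tested subunits, 18 had changes below 0 and 17 above, with a median of -0.0018 and a range of -0.23 to 0.42. NDUFA6, an accessory subunit of the LYR motif family, had 11.5, 10.9 and 7.44 FPKM in siC and 8.46, 8.17, 7.99 and 9.19 FPKM in siIGF2BP1, with changes of -0.21 and -0.40 (limma adjusted p = 0.453 and 0.00922). The siIGF2BP1 values lay between siC replicate 3 and the other controls. NDUFA6 was named after its values were seen, since it passed without that library and not with all libraries.

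The largest change above 0 in complex I was that of NDUFB1, a small accessory subunit. NDUFB1 had 15.2, 15.1 and 6.16 FPKM in siC and 15.1, 13.1, 15.6 and 16.6 FPKM in siIGF2BP1. The groups overlapped with and without siC replicate 3, and the change went from 0.42 (SE 0.31) to -0.0096 without it. NDUFS5, the most abundant complex I transcript, gave 245, 236 and 106 FPKM in siC and 189, 179, 211 and 220.2 FPKM in siIGF2BP1, with changes of 0.12 and -0.27. NDUFC2 behaved otherwise. It had 11.5, 12.03 and 15.5 FPKM in siC and 15.2, 17.6, 14.9 and 14.99 FPKM in siIGF2BP1, and its change went from 0.27 (SE 0.12, limma adjusted p = 0.198) to 0.41 without siC replicate 3 (limma adjusted p = 0.0141). It shares exons with the read-through NDUFC2-KCTD14 on its strand and overlaps THRSP on the other.

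Complex II differed little between the groups. SDHA, the flavoprotein, had 16.1, 15.6 and 10.3 FPKM in siC and 14.96, 14.5, 14.5 and 15.5 FPKM in siIGF2BP1. SDHB had 20.7, 20.8 and 17.4 FPKM against 21.8, 21.8, 19.6 and 22.7 FPKM, and SDHD, the other membrane anchor, 15.4, 17.3 and 15.9 FPKM against 16.4, 15.3, 15.7 and 16.9 FPKM. The groups overlapped for all 3 genes, with log2 changes of 0.11, 0.13 and -0.012, or -0.091, 0.043 and -0.026 without siC replicate 3. SDHC had 11.1, 11.5 and 11.3 FPKM in siC and 10.4, 9.93, 10.4 and 10.53 FPKM in siIGF2BP1. Its groups did not overlap, and its change of -0.13 (SE 0.054, limma adjusted p = 0.182) did not pass the test and was also -0.13 without siC replicate 3.

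In complex V, 7 of 15 genes had changes below 0 and 8 above, with a median of 0.020. ATP5B had 449.7, 455 and 385 FPKM in siC and 395, 348, 392 and 395 FPKM in siIGF2BP1. Its change was -0.17 with all libraries and -0.24 without siC replicate 3 (limma adjusted p = 0.328 and 0.0385). ATP5O had 13.6, 14.5 and 9.67 FPKM against 12.4, 13.1, 12.8 and 13.1 FPKM, with changes of 0.053 and -0.12. The 3 genes of the c subunit, which forms the rotating ring, encode one mature protein behind different import signals. ATP5G2 (ATP5MC2) had 17.1, 18.2 and 16.6 FPKM in siC and 12.6, 13.2, 15.7 and 15.7 FPKM in siIGF2BP1. Its groups did not overlap (change -0.28, SE 0.098, limma adjusted p = 0.122; -0.31 without siC replicate 3). ATP5G3 (ATP5MC3) had 32.7, 32.8 and 28.3 FPKM in siC and 25.7, 25.1, 25.8 and 29.1 FPKM in siIGF2BP1, a change of -0.24 (SE 0.083, limma adjusted p = 0.117), or -0.31 without siC replicate 3 (limma adjusted p = 0.0194). ATP5G1 (ATP5MC1) had 18.5, 19.6 and 29.7 FPKM against 17.7, 19.4, 18.8 and 22.1 FPKM. It was one of the 11 genes highest in siC replicate 3, and its change went from -0.18 to 0.029 without that library. By FPKM, ATP5G3 was the highest of the 3 genes in 6 of the 7 libraries, and ATP5G1 in siC replicate 3. The gene length used as divisor was 6780 bases for ATP5G3 and 2615 for ATP5G1. In reads, ATP5G3 stood above ATP5G1 in each library, with at least 2314 against at most 1638.

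The highest values relative to siC in complex V were those of small membrane subunits. ATP5I (ATP5ME) had 126, 112 and 33.5 FPKM in siC and 94.8, 80.1, 109 and 114 FPKM in siIGF2BP1. This was the gene farthest from the other controls in siC replicate 3, and its change went from 0.34 (SE 0.45) to -0.27 (SE 0.15) without that library. ATP5J2 (ATP5MF) had 32.0, 33.4 and 15.2 FPKM against 34.7, 27.1, 33.9 and 35.2 FPKM, and its change went from 0.36 to -0.0059. ATP5I overlaps exons of MYL5 on the other strand, and ATP5J2 shares exons with PTCD1 and their read-through on its own strand.

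Assembly factors held the largest differences of the list in both directions. NDUFAF3, an early assembly factor of complex I, lies at chr3:49020459-49023495 and overlaps exons of DALRD3 on the other strand. It had 14.1, 12.8 and 22.7 FPKM in siC and 10.1, 10.8, 10.3 and 10.1 FPKM in siIGF2BP1. All siIGF2BP1 values lay below all controls, and here siC replicate 3 was the highest library. The change was -0.63 (SE 0.18, limma adjusted p = 0.0751), and without siC replicate 3 it was smaller, -0.38, but passed (SE 0.058, limma adjusted p = 0.00634). ATP5SL, now DMAC2, a factor for the distal membrane arm of complex I despite its older name, lies at chr19:41431318-41440717. It had 20.6, 19.4 and 17.2 FPKM in siC and 15.04, 15.01, 15.7 and 15.1 FPKM in siIGF2BP1. The groups did not overlap, and the change was -0.32 (SE 0.073, limma adjusted p = 0.0338) with all libraries and -0.39 (limma adjusted p = 0.00272) without siC replicate 3. NDUFAF8, the partner of NDUFAF5, gave 17.4, 17.0 and 11.4 FPKM against 13.4, 11.9, 12.4 and 13.7 FPKM, with changes of -0.22 and -0.42 (limma adjusted p = 0.427 and 0.00756). It too was named after its values were seen.

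NDUFAF2, a factor bound to complex I late in its assembly, had 22.1, 24.2 and 8.86 FPKM in siC and 25.3, 19.8, 27.2 and 26.0 FPKM in siIGF2BP1. The groups overlapped with and without siC replicate 3. The change was 0.54 (SE 0.34, limma adjusted p = 0.386) with all libraries and 0.078 without siC replicate 3. COX17, the copper chaperone of complex IV, had 17.4, 15.4 and 8.66 FPKM against 15.3, 16.5, 16.4 and 17.4 FPKM, with changes of 0.30 and 0.00063. It shares exons with POPDC2 on its own strand. Over the 18 assembly factors the median was 0.063 with all libraries, and 13 had changes above 0.

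Overlap with other genes and copies elsewhere in the genome limit these values for part of the list. Exons of 25 of the 108 genes overlap those of another protein-coding gene on the same strand and 29 on the other, and 49 have at least 1 pseudogene named after them in the table. NDUFB4, with 12 such pseudogenes, NDUFB10 and NDUFV2 were among the 11 genes with their highest value in siC replicate 3. The groups of these genes overlapped. Over all libraries their pseudogenes held 30 reads against 4855 for NDUFB4, 1 against 1714 for NDUFB10, and 406 against 1852 for NDUFV2. NDUFAF3, COX15, COX18 and ATP5S, also highest in siC replicate 3, have no pseudogene named after them. The part of the pseudogenes in these values was not tested.

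Genes that bear on the chain from outside the list were examined as lists. Of 7 other subunits and carriers, 6 were tested and none passed the test, with log2 changes from -0.29 for CYCS, the electron carrier cytochrome c, to 0.27 for USMG5, a small ATP synthase subunit; without siC replicate 3 these were -0.11 and 0.093. C15orf48 was not tested. Of 36 further assembly factors, none passed in either direction. At an unadjusted p under 0.05, 3 were lower (14.8% of all genes) and 3 higher (11.0% of all genes). The extremes were PET117 at -0.40 (limma adjusted p = 0.0362) and SDHAF4 at 0.41 (limma adjusted p = 0.0731). Without siC replicate 3, 3 of the 36 were called lower (6.67% of all genes), PET117 among them (limma adjusted p = 0.00527). SDHAF4 was then at 0.29. With all libraries both median changes, -0.035 and -0.054, were near the -0.017 of all genes. Without siC replicate 3 they were -0.10 and -0.15, below the -0.031 of all genes.

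Of 22 regulators of mitochondrial biogenesis and of mitochondrial DNA expression, 19 were tested and 1 was lower (2.28% of all genes). This was TFAM, the factor that packages mitochondrial DNA and starts its transcription. TFAM had 29.2, 29.7 and 33.1 FPKM in siC and 17.7, 18.6, 19.4 and 18.2 FPKM in siIGF2BP1. Its groups were far apart, siC replicate 3 being the highest library, and the change was -0.73 (SE 0.068, limma adjusted p = 0.0014), or -0.67 without siC replicate 3. NRF1 stood at 7.95 ± 0.356 FPKM in siC and 6.90 ± 0.155 in siIGF2BP1 (change -0.20, limma adjusted p = 0.0770), and GABPA at 9.77 ± 0.559 and 10.7 ± 0.490 FPKM (change 0.13, limma adjusted p = 0.275). SSBP1, a mitochondrial single-strand DNA-binding protein, had the largest change above 0 at 0.24. Without siC replicate 3 the changes of NRF1, GABPA and SSBP1 were -0.20, 0.17 and 0.39. PPARGC1A, PPARGC1B and ESRRG were too low to be tested. Respiratory chain genes with the NRF1 core in their promoter region (14 tested) had a median change of -0.048, against 0.042 for the 63 without it, and without siC replicate 3 the medians were -0.066 and -0.15. The order of these medians turned with that library.

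The citric acid cycle and pyruvate dehydrogenase feed NADH and succinate to the chain. Of 18 of their genes, 2 were lower (2.28% of all genes) and none higher (1.65% of all genes). DLAT, the acetyltransferase of pyruvate dehydrogenase, had 37.8, 38.0 and 35.5 FPKM in siC and 24.3, 24.1, 25.9 and 25.6 FPKM in siIGF2BP1, a change of -0.57 (SE 0.058, limma adjusted p = 0.00195). IDH3A, the catalytic subunit of NAD-dependent isocitrate dehydrogenase, had 9.25, 9.43 and 9.92 FPKM against 7.06, 6.65, 7.20 and 6.97 FPKM, a change of -0.45 (SE 0.060, limma adjusted p = 0.00543). Neither gene overlapped between the groups, and siC replicate 3 lay with the other controls in both; without it the changes were -0.60 and -0.42. The largest change above 0 was that of IDH2, at 0.33, or 0.14 without siC replicate 3, which did not pass the test.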

How the data were processed

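Total RNA-seq libraries of Huh-7 cells (3 siC, 4 siIGF2BP1) were grouped by the sample titles. Ribosomal RNA had been depleted and the library kit was directional. Per the submitters' processing notes, the tools were cutadapt 1.14, HISAT2 2.1.0, SAMtools 1.5, featureCounts 1.5.3 and edgeR 3.18.1, on GRCh38 with an Ensembl annotation. Whether reads were assigned by strand is not given in the sources used here. The authors deposited 1 table with FPKM values per gene and library, scaled by TMM. The table also holds the authors' log2 fold changes, p-values and FDR, which were not used. All sample columns matched a label.

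FPKM multiplied by gene length gave whole reads for 100.0% of values above 0 (tolerance 0.05 reads), from which depth was taken. Depth limits precision for few genes here, because the median over tested members of the lowest read count in a library was 533.5. No replicate pair agreed within sampling noise. Genes averaging 1 FPKM or more across all 7 libraries entered the test on log2(FPKM + 0.1), two-sided, with limma 3.58.1 (R 4.3.3) with a mean-variance trend, Benjamini-Hochberg adjustment over 14839 genes and a threshold of 0.01. This scale understates changes of low genes. The study's count test was not used as the main test, since the deposited values are FPKM. A test on the recovered reads (voom) was run as an alternative. Scripts were tested on simulated data. Members and lists were chosen with earlier results of these data known, and roles were assigned from known function. Coordinates, overlaps and canonical transcripts came from the GENCODE annotation of GRCh38, matched by identifier for 108 of 108 genes, and promoter regions from RefSeq. Named were the 6 largest changes in each direction, the highest and lowest subunit of each complex, isoform pairs, the c subunit genes, SDHA to SDHD, CYC1 and the untested members; 1 gene is counted but not reported here by name. In the other lists, genes past the threshold and the largest change in each direction were named. Alternatives were other pseudocounts, filters, scalings, weights, trend removals, a replicate block and each library left out.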

Additional observations from a re-analysis of the deposited data

Results flagged for a closer look

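In the 4 siIGF2BP1 libraries, 5 of the 39 values examined had a highest or lowest library whose gap to the next, divided by the range of the group, was above Dixon's critical value for 4 samples. Chance flags about 1 in 20, or 1.95 of 39. ATP5B was lowest in siIGF2BP1 replicate 2, at 348 FPKM (ratio 0.940), and ATP5J2 was lowest there at 27.1 FPKM (0.845). NDUFC2 was highest in siIGF2BP1 replicate 2, at 17.6 FPKM (0.870). ATP5G3 was highest in siIGF2BP1 replicate 4, at 29.1 FPKM (0.836), and ATP5SL was highest in siIGF2BP1 replicate 3, at 15.7 FPKM (0.891). The siC group, with 3 libraries, was too small for this examination, siC replicate 3 included.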

How the results depend on the processing

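With a pseudocount of 1, a minimum mean of 5 FPKM, no filter, median centring, quantile normalization, voom on recovered reads or the replicate block, no member passed the threshold, as in the reported fit. Counts over all genes changed more, with 206 lower and 146 higher without a filter, and 511 lower and 469 higher with a GC trend removed. Removing the GC trend called 1 member lower (ATP5SL, -0.29, limma adjusted p = 0.00755), and removing a length trend called 1 lower (CYC1, -0.34, limma adjusted p = 0.00925). Array weights, which give each library its own weight, called 13 members lower and 1 higher (NDUFC2), with 1722 genes lower and 1022 higher. Members whose groups did not overlap numbered 20 after quantile normalization, against 13. Over all genes this share was 15.1% below and 11.9% above with all 7 libraries, and 29.3% and 20.5% without siC replicate 3. It was not taken for other settings, so the other counts of such members have no background. Leaving out 1 library at a time gave 0 to 7 members called lower, 13 to 51 whose groups did not overlap, 53 to 990 genes lower and 66 to 533 higher; the upper end came in each case without siC replicate 3. Leaving out any of the 7 libraries moved the counts of genes by more than 1.5 times, to 53 lower without siC replicate 2 and to 66 higher without siIGF2BP1 replicate 1 at the lowest, and 20 members did not overlap without siC replicate 2.

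The same-numbered libraries did not deviate together (correlations of -0.026, -0.12 and -0.11). The largest correlation of any pair was 0.20, between siC replicate 3 and siIGF2BP1 replicate 2. Since siC replicate 3 stood far from the other controls, a weaker pairing could not be seen in this way. With the replicate block, which leaves siIGF2BP1 replicate 4 without a partner, 0 genes were called in either direction, with or without the GC trend removed. IGF2BP1 then had a change of -2.36 (limma adjusted p = 0.0909), and -2.33 with the GC trend removed (limma adjusted p = 0.0570). With the block alone, an unadjusted p under 0.05 was met by 5 members, all lower. The share over all genes was not taken for that setting.

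Some changes turned sign, those of NDUFB1, ATP5J2 and ATP5I among the largest above 0 included. SDHD became 0.018 with median centring, 0.041 with quantile normalization, 0.0074 with the length trend removed and 0.0065 with the GC trend removed. ATP5B became 0.10 and COX6B1 0.028 with quantile normalization. With array weights, ATP5I became -0.19, ATP5O -0.14, COX6A1 -0.084, COX7A2 -0.15, COX7B -0.14, NDUFA4 -0.067, NDUFS5 -0.23, SDHA -0.068, UQCRB -0.22 and UQCRH -0.030. With 1 library left out, changes ran from -0.31 to 0.029 (ATP5G1), -0.27 to 0.68 (ATP5I), -0.0059 to 0.56 (ATP5J2), -0.12 to 0.16 (ATP5O), -0.10 to 0.24 (COX6A1), -0.18 to 0.18 (COX7A2), -0.18 to 0.37 (COX7B), -0.089 to 0.17 (NDUFA4), -0.0096 to 0.63 (NDUFB1), -0.27 to 0.33 (NDUFS5), -0.091 to 0.23 (SDHA), -0.046 to 0.038 (SDHD), -0.26 to 0.23 (UQCRB) and -0.053 to 0.33 (UQCRH). The cause was not tested.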

Other observations

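The proteins of the mitochondrial ribosome make the subunits encoded by mitochondrial DNA. Of the 78 genes for them, all were tested, and none passed the threshold with all libraries; an unadjusted p under 0.05 was met by 20 on the lower side (14.8% of all genes) and 1 on the higher (11.0% of all genes). Changes were below 0 for 53 of the 78 (52.9% of all genes), with a median of -0.067, and ran from -0.48 for MRPS17 (limma adjusted p = 0.0240) to 0.21 for MRPL48. Without siC replicate 3, 6 were called lower (6.67% of all genes), a share near that of all genes. Other measures lay further from all genes in this fit. At an unadjusted p under 0.05, 42 were lower (23.1% of all genes) and 1 was higher (15.2% of all genes). All siIGF2BP1 values lay below both controls for 48 (29.3% of all genes) and above both for 3 (20.5% of all genes). Changes were below 0 for 64 (54.5% of all genes), and the median was -0.19 beside -0.031 over all genes. MRPS17 was at -0.52 and MRPL48 at 0.15.

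Of 27 genes of mitochondrial protein import, by which the nuclear-encoded subunits reach the inner membrane, 25 were tested and none passed with all libraries; an unadjusted p under 0.05 was met by 5, all of them lower (14.8% of all genes). TOMM34, a cytosolic co-chaperone linked to import, had 31.1, 29.1 and 22.1 FPKM in siC and 16.7, 14.3, 17.6 and 16.8 FPKM in siIGF2BP1. Its groups did not overlap, and the change was -0.73 (SE 0.13, limma adjusted p = 0.0157) with all libraries and -0.88 without siC replicate 3 (limma adjusted p = 0.00182). The largest change above 0 was that of TIMM8B, at 0.11, which was -0.32 without siC replicate 3 (limma adjusted p = 0.0302). TOMM6 and PAM16 were not tested.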
